A study of Mus musculus with 10 samples.

Results

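The immediate early transcription factors examined here were the AP-1 genes Fos, Fosb, Fosl2, Jun, Junb, Jund and Atf3, the zinc finger genes Egr1 and Egr2, and Myc. All 10 genes were found through the RefSeq accession given for each array probe, and 11 of the 39429 probes on the array measured them. Fosl2 had 2 probes and each other gene had 1. The list is one of gene function, and no measured value enters its rule. Each heart came from a male mouse that had either received aldosterone for 7 days or had no treatment. There were 5 aldosterone hearts and 5 untreated hearts, and the titles of both groups carry the word Ctrl. Dose, route, strain, genotype and age were not given in the sources used here. Ventricle RNA was labelled with Cy5 and hybridised to 2-colour Agilent arrays against a Cy3-labelled pool of liver, brain, heart, kidney and spleen RNA.

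Scanner files of 4 aldosterone and 5 untreated arrays gave the main values, and aldosterone heart 4 entered only through the deposited value table of all 10 hearts. The Cy5 signal of 64.3% to 70.9% of an array's probes stood well above background. All 10 cardiomyocyte markers examined were well above background on all 9 arrays. In both groups 9 of the 10 were above the reference pool on average, the exception being Actc1. After removal of group means, the first principal component of all genes carried 38.5% of the variance. It placed aldosterone hearts 1 and 2 with untreated hearts 2 and 5 on one side and the remaining 5 arrays on the other. With group means removed, each group had to fall on both sides, so this split cannot speak to treatment.

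Immediate early genes are transcribed within minutes of a signal, before new protein is made, and most of their mRNAs decay quickly. Fos and Jun family proteins pair through leucine zippers to form AP-1, which acts on genes of matrix remodelling, inflammation and growth. Egr1 and Egr2 bind GC-rich DNA and are restrained by the NAB corepressors, and Myc pairs with Max to drive genes of growth and ribosome synthesis. In heart muscle these genes are known for their fast rise after stretch, pressure load or hormone stimulation. A sample taken after 7 days therefore reads their level during sustained exposure, not their first response.

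Promoter DNA is given for the member with the smallest p (Egr2), for the member measured in the most spots (Fos) and for those with the widest spread between hearts within the AP-1 group (Jun and Atf3). RefSeq windows on GRCm38.p6 matched 8 of the 10 genes. Egr1 and Myc were not among them. The 250 bases before the start site were searched on both strands for the CArG box bound by serum response factor, for the cyclic AMP element core TGACG, for the AP-1 sites TGANTCA and TGACATCA, for the Egr site GCGNGGGCG and for the Myc site CACGTG. Capitals mark the matches, and CGTCA is TGACG on the other strand. Egr2 has 5 annotated starts, of which 1 is shown, at chr10:67537619-67537868 on the plus strand. Fos is shown at chr12:85473640-85473889 on the plus strand, Jun at chr4:95052223-95052472 on the minus strand and Atf3 at chr1:191183334-191183583 on the minus strand.
Egr2: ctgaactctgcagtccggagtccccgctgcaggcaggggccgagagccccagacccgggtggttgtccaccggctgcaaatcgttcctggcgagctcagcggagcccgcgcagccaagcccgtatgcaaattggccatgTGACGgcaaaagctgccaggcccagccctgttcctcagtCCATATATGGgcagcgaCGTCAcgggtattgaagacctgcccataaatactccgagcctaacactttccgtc
Fos: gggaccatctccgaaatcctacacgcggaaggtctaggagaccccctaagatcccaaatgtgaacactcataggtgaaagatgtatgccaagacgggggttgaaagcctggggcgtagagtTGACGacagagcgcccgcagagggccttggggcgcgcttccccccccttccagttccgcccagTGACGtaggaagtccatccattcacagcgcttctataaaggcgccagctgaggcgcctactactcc
Jun: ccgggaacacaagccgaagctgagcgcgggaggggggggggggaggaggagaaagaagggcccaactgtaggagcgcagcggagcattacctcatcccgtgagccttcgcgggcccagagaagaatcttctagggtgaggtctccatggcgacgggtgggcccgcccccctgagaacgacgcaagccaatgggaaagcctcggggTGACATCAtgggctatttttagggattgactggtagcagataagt
Atf3: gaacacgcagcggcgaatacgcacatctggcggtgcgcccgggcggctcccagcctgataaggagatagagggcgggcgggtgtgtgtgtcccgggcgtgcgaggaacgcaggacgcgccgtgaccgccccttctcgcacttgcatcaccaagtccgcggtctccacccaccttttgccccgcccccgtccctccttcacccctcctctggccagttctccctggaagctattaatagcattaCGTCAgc

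Among the 8 genes with a window, the CArG box was found only for Egr2, in 4 of its 5 windows, and it occurs in 1.47% of all 32851 mouse windows of this length. The Egr2 windows starting at 67537619, 67537620 and 67537680 overlap and hold the same CCATATATGG site. The window at 67537316 holds another site, CCTTTTTTGG, so the windows are not separate finds. TGACG was found for 5 of the 8 genes and in 17.8% of all windows. TGACATCA was found for Jun alone and in 2.93% of all windows, and TGANTCA for none of the 8, against 6.75% of all windows. GCGNGGGCG was found for Fosb and Fosl2 (4.7% of all windows) and CACGTG in 1 window of Egr2 (6.02%). These are letter matches in a short window, and the arrays measured no binding. Bases farther upstream were not searched, so a gene without a match here may have such a site there.

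The comparison asked which of these factors differed between aldosterone and untreated ventricle. No member passed the test across all genes. Egr2 was the member nearest to it and was higher in all 4 scanned aldosterone hearts than in all 5 untreated hearts, with a difference of 0.23 on the log2 scale (SE 0.07) and an adjusted p of 0.480 in limma's moderated test. Fos, Fosb, Fosl2, Jun, Egr1 and Myc were also higher on average, by 0.06 to 0.16, and Jund and Atf3 were lower by -0.16 and -0.17, each with overlapping groups. Limma called 0 of 22016 genes at an adjusted p under 0.05, or 0% of genes tested, while 1363 genes, 6.19%, had an unadjusted p under 0.05 (4.15% higher and 2.04% lower in aldosterone hearts). Of the 9 members tested, 1 had an unadjusted p under 0.05, Egr2, which was higher.

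In the text that follows a level is the log2 ratio of heart over reference pool for 1 probe, and a difference is the aldosterone mean minus the untreated mean. Levels of different probes cannot be set against each other. The background correction adds 50 units to both channels, which pulls the ratios of dim probes towards 0. The Cy5 signal over local background was 15.5 to 95 units for Fos, Fosb, Egr2 and Myc. Their differences and their spread between hearts are therefore both compressed on this scale. The deposited table has no such offset, and its values are given beside them.

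**Figure D1:**
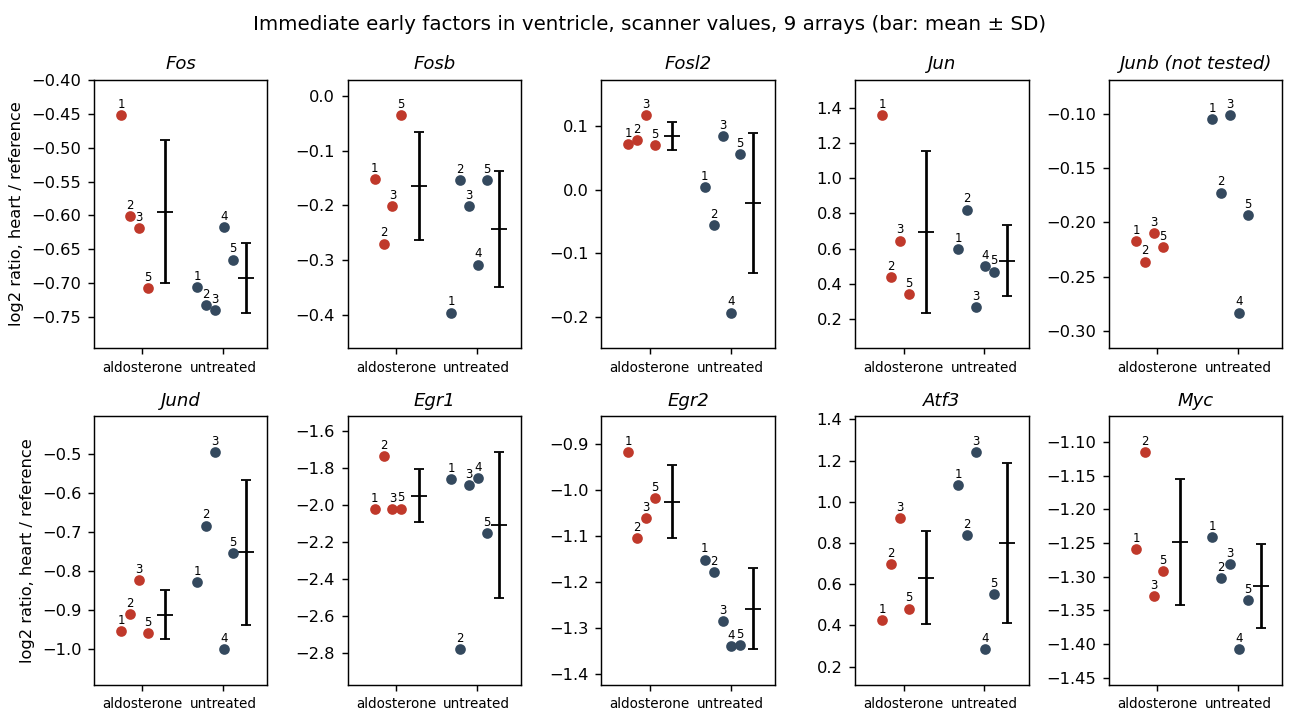
Level of each factor on the 9 scanned arrays, as the log2 ratio of heart over reference pool on the vertical axis, with aldosterone hearts in red on the left and untreated hearts in dark blue on the right. Numbers are replicate numbers, bars are mean ± SD (4 aldosterone and 5 untreated arrays), and Junb, not tested, has no bar. The groups separate for Egr2 alone of the tested factors, and 1 heart stands apart for Jun (aldosterone 1) and for Egr1 (untreated 2).

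Fos, the founding partner of AP-1 dimers, had levels of -0.45, -0.60, -0.62 and -0.71 in aldosterone hearts 1, 2, 3 and 5, against -0.71, -0.73, -0.74, -0.62 and -0.67 in untreated hearts 1 to 5. Aldosterone heart 1 was the highest of the 9, and aldosterone heart 5 lay within the untreated range. The difference was 0.10 (SE 0.06, 95% interval -0.04 to 0.24, limma adjusted p = 0.945), and without aldosterone heart 1 it was 0.05 (SE 0.06). The Fos probe is printed 10 times on each array, which shows how well a dim probe was measured. The spots of 1 array had an SD of 0.05 to 0.13, so the gap of 0.10 between the groups was no larger than the spread of repeat spots on some arrays. The mean of 8 to 10 spots is firmer than any single spot, and the untreated hearts' means had an SD of 0.05.

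**Figure D2:**
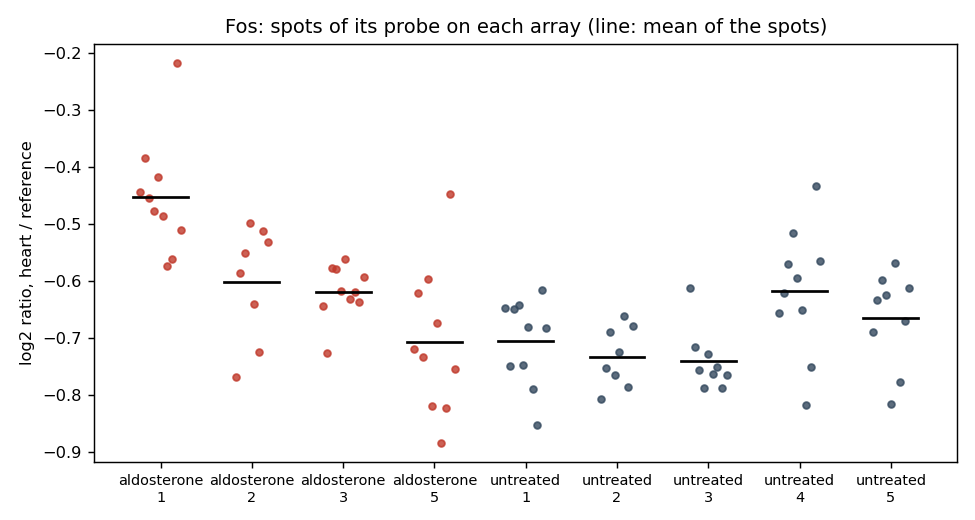
Log2 ratio of heart over reference pool (vertical axis) for each spot of the Fos probe on the 4 aldosterone arrays (red) and 5 untreated arrays (dark blue), with outlier spots left out and a line at each array's mean. The spots of aldosterone 1 lie between -0.57 and -0.22, and those of the other 8 arrays between -0.88 and -0.43.

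In the deposited table Fos had values of -0.76, -1.05, -1.13, -2.07 and -1.59 in aldosterone hearts 1 to 5, against -1.78, -1.61, -1.80, -1.32 and -1.49 in untreated hearts 1 to 5. Aldosterone hearts 1 to 3 were above all untreated hearts and aldosterone heart 4 was below all of them. Over the 10 hearts the difference was 0.28 (SE 0.23, limma adjusted p = 0.832), and without aldosterone heart 4 it was 0.47 (SE 0.17, limma adjusted p = 0.580). Aldosterone heart 5 lay within the untreated range.

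Fosb, a Fos paralogue whose splice form accumulates under repeated stimulation in brain, had levels of -0.15, -0.27, -0.20 and -0.03 in aldosterone hearts 1, 2, 3 and 5, against -0.40, -0.15, -0.20, -0.31 and -0.15 in untreated hearts 1 to 5. The groups overlapped in part, with aldosterone heart 5 above all untreated hearts and untreated hearts 1 and 4 below all aldosterone hearts. The difference was 0.08 (SE 0.07, limma adjusted p = 0.996), and 0.03 (SE 0.08) without aldosterone heart 5. The deposited values of aldosterone hearts 1, 2, 3 and 5 lay between 0.15 and 0.24, and aldosterone heart 4 lay at -0.51, below every untreated heart (-0.42 to 0.16). The difference was 0.16 (SE 0.17) with that heart and 0.31 (SE 0.12, limma adjusted p = 0.616) without it.

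Fosl2 encodes Fra-2, a Fos family member known for driving fibroblast activation and fibrosis in mouse models. Its brighter probe had levels of 0.07, 0.08, 0.12 and 0.07 in aldosterone hearts 1, 2, 3 and 5, a narrow band with an SD of 0.02, against 0.00, -0.06, 0.08, -0.19 and 0.06 in untreated hearts 1 to 5. Untreated heart 4 was the lowest. The difference was 0.11 (SE 0.06, 95% interval -0.04 to 0.25, limma adjusted p = 0.942), and 0.06 (SE 0.06) without that heart. Over the 10 hearts of the deposited table it was 0.04 (SE 0.07). The second Fosl2 probe was well above background on 7 of 9 arrays at 16 to 27.5 units, and it differed by -0.02 (SE 0.06) when every kept probe was tested on its own, opposite in sign to the brighter probe.

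Jun, the main transactivating partner in AP-1 and the target of JNK, was among the brighter members, with 4027 to 6756.5 units over background. It had levels of 1.36, 0.44, 0.65 and 0.34 in aldosterone hearts 1, 2, 3 and 5, against 0.60, 0.82, 0.27, 0.50 and 0.47 in untreated hearts 1 to 5. Aldosterone heart 1 stood well above the rest, and the other 3 aldosterone hearts lay inside the untreated range. The difference of 0.16 (SE 0.19, limma adjusted p = 0.999) rested on that heart. Without it the difference was -0.06 (SE 0.12). Among the deposited values aldosterone heart 1 was at 1.39, the other aldosterone hearts were at 0.51 to 0.68 and the untreated hearts at 0.59 to 0.89.

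Junb, a Jun paralogue that often restrains Jun, could not be read in these hearts. Its probe was well above background on 0 of 4 aldosterone arrays and 1 of 5 untreated arrays, with 7.5 to 18 units over background in aldosterone hearts and 8.5 to 15 units in untreated hearts. It was not tested, and no difference is given.

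Jund, the Jun paralogue expressed most steadily in resting cells and known for limiting hypertrophy in mice, had levels of -0.95, -0.91, -0.82 and -0.96 in aldosterone hearts 1, 2, 3 and 5, against -0.83, -0.68, -0.50, -0.9996 and -0.75 in untreated hearts 1 to 5. The aldosterone hearts were close together at the low end of the untreated range, between untreated hearts 4 and 1 but for aldosterone heart 3, which was level with untreated heart 1. The difference was -0.16 (SE 0.09, 95% interval -0.36 to 0.04, limma adjusted p = 0.909). It was -0.22 (SE 0.08) without untreated heart 4 and -0.09 (SE 0.08) without untreated heart 3, and it was -0.10 (SE 0.08) in the deposited table.

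Atf3, a stress-induced AP-1 repressor, varied widely between hearts. It had levels of 0.43, 0.70, 0.92 and 0.48 in aldosterone hearts 1, 2, 3 and 5, against 1.08, 0.84, 1.24, 0.28 and 0.55 in untreated hearts 1 to 5. The untreated hearts alone ran from the lowest to the highest value of all 9. The difference was -0.17 (SE 0.18, 95% interval -0.57 to 0.24, limma adjusted p = 0.999), -0.06 (SE 0.17) without untreated heart 3 and -0.30 (SE 0.16) without untreated heart 4. Among the deposited values the aldosterone hearts lay between 1.29 and 1.91 and the untreated hearts between 1.04 and 2.82. The difference there was -0.36 (SE 0.30), and -0.58 (SE 0.25, limma adjusted p = 0.640) without untreated heart 4.

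Egr1, the most widely induced Egr factor, had levels of -2.02, -1.74, -2.02 and -2.02 in aldosterone hearts 1, 2, 3 and 5, against -1.86, -2.78, -1.89, -1.86 and -2.15 in untreated hearts 1 to 5. Untreated heart 2 stood well below the rest. With it the difference was 0.16 (SE 0.17, limma adjusted p = 0.999), and without it -0.01 (SE 0.09), so its sign depended on 1 untreated heart. The aldosterone hearts in the deposited table lay between -2.15 and -1.52, and the untreated hearts between -2.72 and -1.62.

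Egr2, also called Krox20, controls hindbrain patterning and myelination by Schwann cells and is an early response gene in other cells. Its Cy5 signal over background was 45.5, 45.5, 58 and 48 units in aldosterone hearts 1, 2, 3 and 5, against 22.5, 39, 26, 15.5 and 26.5 units in untreated hearts 1 to 5. Every aldosterone value was above every untreated value, and on untreated array 4 the spot was not well above background. Its levels were -0.92, -1.10, -1.06 and -1.02 in the aldosterone hearts and -1.15, -1.18, -1.28, -1.34 and -1.34 in the untreated hearts, so the groups did not overlap on this scale either. Over all genes tested, 1.46% were higher in aldosterone hearts with no overlap between the groups and 0.64% were lower with none. Egr2 was the 1 member of 9 in the first set, and none was in the second.

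The Egr2 difference of 0.23 had a 95% interval of 0.09 to 0.38, an unadjusted p of 0.00443 and an adjusted p of 0.480 in limma. Within the 4 slides, each of which held an aldosterone array and at least 1 untreated array, it was 0.25, 0.18, 0.28 and 0.32. Egr2 and Myc were the members that were higher on all 4 slides. With an offset of 16 units in place of 50 the Egr2 difference was 0.41 (SE 0.10, limma adjusted p = 0.276), and with local backgrounds left as scanned it was 0.10 (SE 0.19) with an unadjusted p above 0.05. Over all alternatives the adjusted p ran from 0.257 to 1.00. In the deposited table Egr2 had values of -1.34, -1.92, -1.58, -2.29 and -1.77 in aldosterone hearts 1 to 5, against -2.42, -1.99, -2.56, -3.25 and -2.72 in untreated hearts 1 to 5. Aldosterone heart 4 overlapped with untreated heart 2 there, and the other 4 aldosterone hearts were above all untreated hearts. The difference over the 10 hearts was 0.81 (SE 0.24, 95% interval 0.28 to 1.34), a 1.75-fold difference, with an unadjusted p of 0.00677 and an adjusted p of 0.367 in limma. Leaving out 1 heart at a time gave 0.64 to 0.96. The lowest was without untreated heart 4, the dimmest spot (SE 0.21, limma adjusted p = 0.464), and the highest without untreated heart 2. The fit of all 10 hearts called 37 genes, 0.168% of those tested, and 8.09% had an unadjusted p under 0.05 (4.86% higher and 3.24% lower). None of the 9 members was among the 37, and Egr2 was the 1 member with an unadjusted p under 0.05. Groups of the 10 hearts did not overlap for 1.34% of genes that were higher and 0.577% that were lower, and for 0 of the 9 members.

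Whole ventricle RNA holds several cell types, and more cells of a type cannot be told apart from more RNA per cell. The neuron and Schwann cell markers, fixed as a list because Egr2 is known from Schwann cells, had a mean level of -2.23 to -1.92 in aldosterone hearts and -2.25 to -2.00 in untreated hearts. Of its 6 tested genes 5 were higher, by a median of 0.04. Macrophage markers were higher for 5 of 7 genes (list means -1.24 to -0.92 in aldosterone hearts and -1.67 to -0.77 in untreated hearts). Fibroblast markers were higher for 10 of 10 genes, by a median of 0.43. An unadjusted p under 0.05 was seen for 7 of them, against 6.19% of all genes tested (4.15% higher and 2.04% lower). Their list means were 0.71 to 1.25 in aldosterone hearts and 0.34 to 1.01 in untreated hearts. Erythrocyte markers were higher for 4 of 4 genes, by a median of 0.53 and with an unadjusted p under 0.05 for 3 (list means -2.39 to -1.92 in aldosterone hearts and -3.36 to -2.46 in untreated hearts). Adipocyte markers were higher for 1 of 7 genes, with a median difference of -0.09 and an unadjusted p under 0.05 for 2, both lower. Their list means were -0.70 to -0.32 in aldosterone hearts and -0.49 to -0.15 in untreated hearts, and their median difference in the deposited table was -0.52. Lymphocyte markers were higher for 0 of 8 genes (-2.32 to -2.17 in aldosterone hearts and -2.31 to -2.14 in untreated hearts). None of these genes passed over all genes, and their part in the Egr2 and Fos values was not tested.

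Myc, the growth regulator, had levels of -1.26, -1.11, -1.33 and -1.29 in aldosterone hearts 1, 2, 3 and 5, against -1.24, -1.30, -1.28, -1.41 and -1.33 in untreated hearts 1 to 5. The groups overlapped, and the difference was 0.06 (SE 0.06, 95% interval -0.07 to 0.20, limma adjusted p = 0.998). Without aldosterone heart 2 it was 0.02 (SE 0.06). Over the 10 hearts it was 0.18 (SE 0.25), and -0.0013 (SE 0.21) without untreated heart 4. At 25 to 65 units over background Myc was dim in both groups. With local backgrounds left as scanned its sign turned, to -0.07 (SE 0.18).

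**Figure D3:**
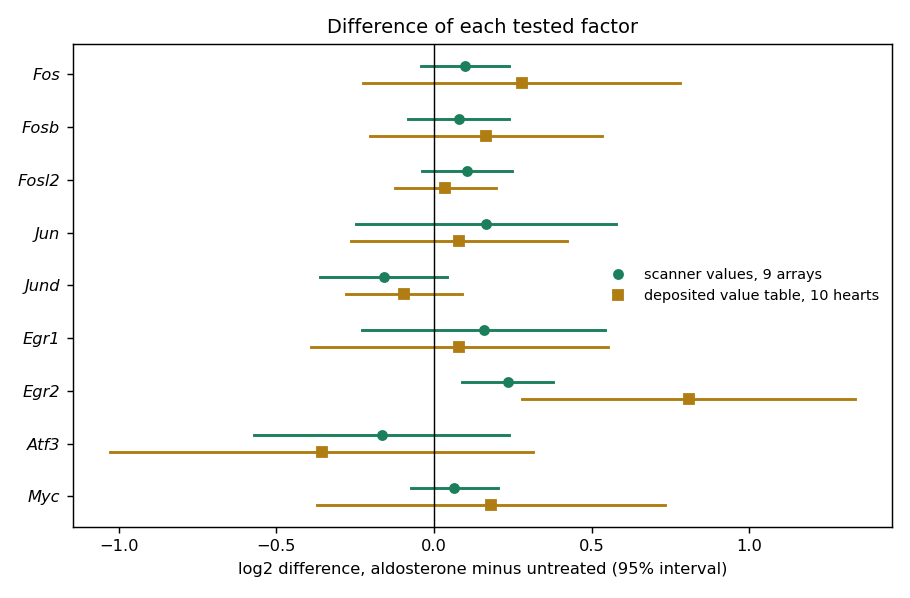
Log2 difference, aldosterone minus untreated (horizontal axis), with its 95% limma interval for each tested factor, from scanner values of 9 arrays (green circles) and from the deposited table of 10 hearts (ochre squares). Both intervals exclude 0 for Egr2 alone, before adjustment. The dim members Fos, Fosb, Egr2 and Myc have larger differences in the deposited table, and so in size has the brighter Atf3 (-0.36 against -0.17). That table has no offset, and it also differs in normalization and in holding aldosterone heart 4.

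Over the 9 tested members the median difference was 0.10, with 7 higher and 2 lower, while over all 22016 genes tested the median was 0.00 and 52.3% were higher. Over the 10 hearts the same counts were 7 and 2, with a median of 0.08, while 49.9% of all genes tested were higher. The hearts with the highest and lowest levels differed between members. The highest level was in aldosterone heart 1 for Fos, Jun and Egr2, in aldosterone heart 2 for Egr1 and Myc, in aldosterone heart 3 for Fosl2, in aldosterone heart 5 for Fosb and in untreated heart 3 for Jund and Atf3. The lowest was in untreated heart 4 for Fosl2, Jund, Egr2, Atf3 and Myc, in untreated heart 3 for Fos and Jun, in untreated heart 1 for Fosb and in untreated heart 2 for Egr1.

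The genes whose pattern over the 9 arrays was most like that of Fos, after removal of group means, were Cyp3a13 (Pearson r = 0.99), Slc25a38 (0.99), Znrd2 (0.95), Fam43a (0.95), H3c11 (0.95) and Slc4a1 (0.94). Slc4a1 is also on the erythrocyte marker list. These are the highest r of very many values over 9 arrays that share slides and a reference, and are given as a description. Among the other members Jun had an r of 0.71 with Fos, higher than 96.1% of named genes, and the rest lay between -0.50 and 0.17. Over the same 9 arrays Fosl2 and Jund had an r of 0.80, Jund and Atf3 of 0.79, Fosl2 and Atf3 of 0.70, and Jun and Egr2 of 0.68, while Fosb and Egr1 had -0.61. Fos, Jun and Egr2 were each highest in aldosterone heart 1, and their r without that heart was not computed. The values of r between members are likewise a description.

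Of 21 other bZIP factors tested 11 were higher and 10 lower, with a median difference of 0.01, and none passed over all genes. The small Maf gene Maff differed by 0.32 (SE 0.11), Cebpd, a C/EBP factor of the acute phase response, by 0.36 (SE 0.16) and Ddit3, the stress factor CHOP, by -0.27 (SE 0.13). Of the Egr relatives and corepressors, Egr3 and Egr4 were not tested, and Nab1, Wt1 and Nab2 differed by 0.23 (SE 0.12), 0.19 (SE 0.11) and 0.07 (SE 0.07).

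Other immediate early genes gave 19 higher and 11 lower of 30 tested, with a median of 0.03 and none that passed. The orphan receptor gene Nr4a1 had levels of 0.27, -0.30, 0.25 and -0.69 in aldosterone hearts 1, 2, 3 and 5, against -0.89, -1.06, 0.05, -0.68 and -1.19 in untreated hearts 1 to 5, and its difference of 0.63 (SE 0.26, limma adjusted p = 0.772) came with overlapping groups. Tiparp, an ADP-ribosyltransferase gene of early responses, differed by 0.24 (SE 0.07) without overlap on the 9 arrays but with overlap over the 10 hearts, and the kinase gene Plk3 by 0.18 (SE 0.08). The adjusted p in limma was 0.496 and 0.791.

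Upstream of the members, 27 genes of the Ras, ERK, JNK and p38 cascades and of serum response factor and its cofactors gave 12 higher and 15 lower, with a median of -0.01. Their differences ran from -0.13 to 0.17, and 0 of the 27 had an unadjusted p under 0.05, against 6.19% of all genes tested. The 3 of smallest p were Mrtfb, a cofactor of serum response factor (0.17, SE 0.11), the ERK kinase gene Map2k2 (-0.12, SE 0.08) and the JNK gene Mapk10 (0.16, SE 0.11).

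Inhibitors that the same signals switch on were higher for 13 of 15 genes tested, with a median of 0.06, and none passed. Spry4, which blocks receptor signalling to ERK, had levels of 0.52, 0.47, 0.72 and 0.45 in aldosterone hearts 1, 2, 3 and 5, against 0.29, 0.24, 0.34, 0.33 and 0.26 in untreated hearts 1 to 5. Its groups did not overlap there, as for 1.46% of all genes tested, but did over the 10 hearts of the deposited table. The difference was 0.25 (SE 0.07, limma adjusted p = 0.437). Spred1, a related inhibitor of Raf activation, had levels of -0.47, -0.58, -0.64 and -0.47 in the aldosterone hearts and -0.81, -0.69, -0.80, -0.78 and -0.66 in the untreated hearts. It differed by 0.21 (SE 0.06, limma adjusted p = 0.523), also without overlap and, in the deposited table of 10 hearts, by 0.23 (SE 0.06) without overlap. Spry1 differed by 0.33 (SE 0.10, limma adjusted p = 0.598), with untreated heart 5 inside the aldosterone range.

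**Figure D4:**
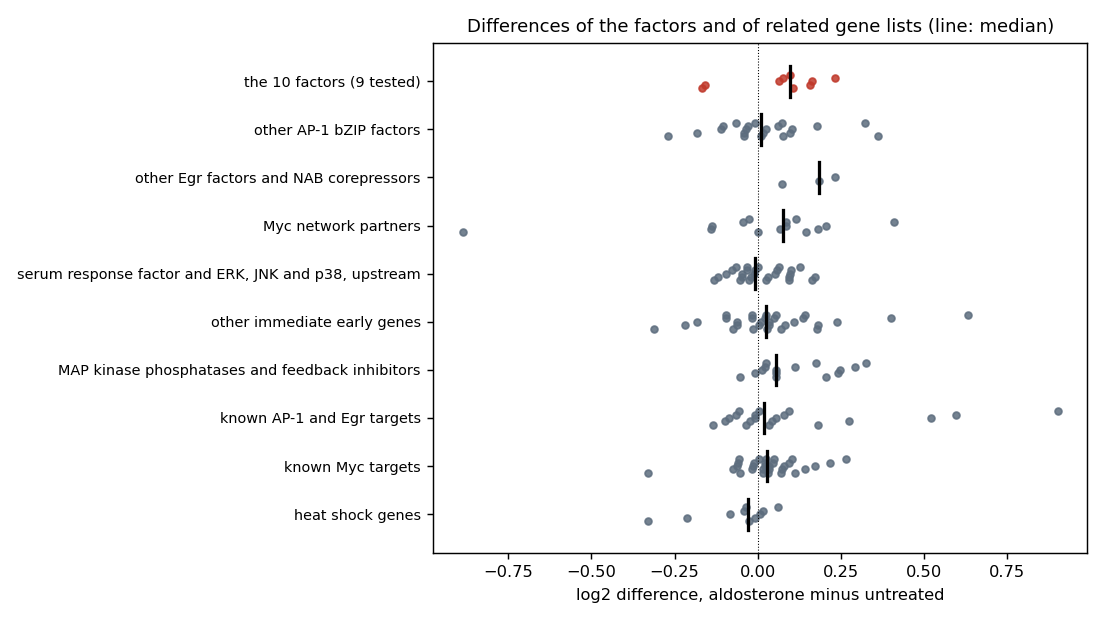
Log2 difference, aldosterone minus untreated (horizontal axis), of each tested gene of the immediate early factors (red) and of 9 related lists (grey), from scanner values of 9 arrays, with a line at each median. List medians lie between -0.03 and 0.19, and the gene farthest to the right is Ccnd1 at 0.90.

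Genes known to be driven by AP-1 or Egr factors split evenly, with 11 higher and 9 lower of 20 tested and a median of 0.02. The cyclin gene Ccnd1 differed by 0.90 (SE 0.12). It had a limma adjusted p of 0.1003 on 9 arrays and of 0.0317 in the deposited table of 10 hearts, where it differed by 0.92 (SE 0.12) and passed. Leaving out 1 of the 10 hearts at a time kept that call in 3 of 10 fits, with differences of 0.86 to 1.01 and adjusted p of 0.0168 to 0.102. The call was also lost with replicate number as a block (limma adjusted p = 0.0872) and with no filter on dim probes (0.0554). The protease gene Mmp3 differed by 0.60 (SE 0.21, limma adjusted p = 0.682). The protease inhibitor gene Timp1 differed by 0.52 (SE 0.21, limma adjusted p = 0.741). Both had overlapping groups. Mmp3 was well above background on 7 of 9 arrays. In the deposited table, which has no offset, Mmp3 differed by 2.53 (SE 0.88, limma adjusted p = 0.486).

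In the Myc network 9 genes were higher and 5 lower of 14 tested, with a median of 0.08. The paralogue Mycn had levels of 0.96, 0.62, 0.87 and 0.67 in aldosterone hearts 1, 2, 3 and 5, against 0.24, 0.34, 0.34, 0.43 and 0.49 in untreated hearts 1 to 5. Every aldosterone value was above every untreated value, and the difference was 0.41 (SE 0.08, limma adjusted p = 0.190), against 0.06 for Myc itself. The deposited table gave 0.59 (SE 0.17, limma adjusted p = 0.355) for Mycn, also without overlap. Fbxl14, a ubiquitin ligase subunit gene, differed by 0.21 (SE 0.07) and the Max partner Mxd3 by 0.18 (SE 0.07). Mxd1, a Max partner that opposes Myc, had the largest difference of the network, -0.89 (SE 0.37, limma adjusted p = 0.765), with overlapping groups. It is named after its value was seen. Known Myc targets were higher for 21 of 30 genes, with a median of 0.03 and none that passed. The nucleoside diphosphate kinase gene Nme1 differed by 0.17 (SE 0.06), the cyclin gene Ccnd2 by -0.33 (SE 0.12) and the nucleolar gene Nop58 by 0.14 (SE 0.06).

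Heat shock genes, read as a second fast stress response, were lower for 7 of 10 tested, with a median of -0.03. Hspa1a had levels of 0.11, 0.35, 0.70 and 0.09 in aldosterone hearts 1, 2, 3 and 5, against 0.97, 0.43, 1.30, 0.06 and 0.45 in untreated hearts 1 to 5. It was highest in untreated heart 3 and lowest in untreated heart 4, the same hearts that had the highest and lowest Atf3, and its difference was -0.33 (SE 0.23, limma adjusted p = 0.969). Dnajb1 and Hspe1 differed by -0.21 (SE 0.15) and 0.06 (SE 0.10).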

How the data were processed

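The deposited scanner files of 9 arrays give spot and local background intensity in both channels and a log10 ratio of the Cy5 to the Cy3 channel. The software, per the file headers, was Agilent Feature Extraction (10.7.3.1). The authors also deposited a table of log2 values by probe for 10 hearts. On the log2 scale it followed the scanner's own ratio (r of 0.996 to 1.00 over probes), uncentred, with column medians of -0.01 to 0.12.

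Median signals were corrected with normexp (offset 50) and normalized by loess within each array (R 4.3.3, limma 3.58.1). Local backgrounds over 20 units from an array's median were first replaced by that median, since stray values on untreated array 1 were known from earlier results to inflate the noise term. Control spots and 1667 outlier spots were left out, and spots of a probe were averaged. Accessions without versions named 26581 of 39429 probes from RefSeq GRCm38.p6. Probes were kept where at least 4 arrays had Cy5 well above background, and the brightest kept probe stood for each of 22016 genes or transcripts. limma compared the groups with a two-sided test, p-values were adjusted by Benjamini-Hochberg across all genes, and 0.05 was the limit. The number of arrays limits precision. The labels number the mice, 1 for each heart.

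The members and lists were chosen with earlier results of these data known. Named genes were all members, in each list the 3 genes of smallest p and any that passed, and the 6 genes most like Fos. Each of the 4 slides held both groups and was scanned once. Position on the slide followed the group and cannot be told apart from it. On simulated data with 22016 genes, this fit recovered 66% of differences of 0.5 and 88% of differences of 1, with 15 false calls. The simulated data held 50 changed genes at each difference, which eases the Benjamini-Hochberg limit. The fit of the 9 arrays called 0 genes, so the shares need not hold there. Smaller differences were not simulated. These shares therefore do not apply to the members, whose differences on the 9 arrays ran from -0.17 to 0.23. Alternatives in background, normalization, filter, block and replicates are given in the closing section.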

Additional observations from a re-analysis of the deposited data

Results flagged for a closer look

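In 36 groups of 4 or 5 values that were checked for a single distant heart, 3 held one by Dixon's criterion at the 95% level, where chance gives about 1 in 20. Fosb in the deposited table was -0.51 in aldosterone heart 4, with the nearest aldosterone heart at 0.15. Jun in the deposited table was 1.39 in aldosterone heart 1, with the nearest aldosterone heart at 0.68. Egr1 in the scanner values was -1.74 in aldosterone heart 2, with the nearest aldosterone heart at -2.02.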

How the results depend on the processing

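Egr2 was higher in aldosterone hearts under 25 of 25 alternatives that tested it (0.10 to 0.93) and passed the adjusted threshold under 0. Its unadjusted p was under 0.05 in 24 of them, the exception being local backgrounds left as scanned (0.10, SE 0.19). No member passed under any alternative run. With backgrounds as scanned the median over the members was 0.026 and Myc was -0.065. Leaving out 1 heart at a time gave -0.056 to 0.28 for Jun and -0.010 to 0.22 for Egr1, negative without aldosterone heart 1 and untreated heart 2. The cause was not tested. Genes called on 9 arrays numbered 0, but 11 with Agilent's processed signals, 37 with the value table of 10 hearts, 13 with its 9 scanned hearts, and 0 to 11 without 1 heart (11 without untreated heart 5, 7 without untreated heart 3). In the value table the 37 calls became 8 with no filter on dim probes and 2 to 50 without 1 heart (2 without aldosterone heart 3, 50 without untreated heart 5). The replicate block gave 2 calls on 9 arrays and 0 in the value table in limma, where 1668 genes had an unadjusted p under 0.05. Ccnd1 thus lost its value table call under the replicate block (adjusted p = 0.0872) and with no filter (0.0554). Same-numbered hearts correlated at -0.22 to 0.28 in the value table, where 2 of 5 correlated best with their own number. On the scanned arrays they correlated at -0.34 to 0.35. The labels link these hearts by nothing but the number, and so few values cannot show whether they form pairs. The replicate block called no member. Fos, Fosb, Egr2, Myc and the second Fosl2 probe lay near background, which limits their precision.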
